A study of Homo sapiens with 12 samples.

Results

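The cleavage and polyadenylation factors are the proteins that cut a pre-mRNA downstream of its poly(A) signal and prepare the cut end for a poly(A) tail. A set of 10 subunits were named as members and found by their symbols among the gene IDs of the RNA-seq count table, which holds 60671 genes, and all 10 passed the filter on low counts that left 18626 genes for testing. CPSF1, CPSF2, CPSF3, CPSF4 and FIP1L1 belong to the cleavage and polyadenylation specificity factor (CPSF), CSTF2 and CSTF3 to the cleavage stimulation factor (CstF), NUDT21 and CPSF6 to cleavage factor I (CFIm) and PCF11 to cleavage factor II (CFIIm). Their mRNA levels were compared in K562, resistant K/VP.5 and edited K562/SSedit-2 cells, with 4 replicate RNA samples of each line. K562 is a human leukemia cell line. K/VP.5 is an etoposide-resistant subline that was selected from K562 cells by exposure to etoposide and cloned. K562/SSedit-2 is a clone of K562 cells in which the 5′ splice site between exon 19 and intron 19 of TOP2A, the gene of DNA topoisomerase IIα, was silenced with Cas9, sgRNA #1 and a repair template by homology-directed repair. Some but not all TOP2A alleles of this clone carry the edit, and unedited sequence remains. All cells were grown in DMEM with fetal bovine serum to mid-log phase. Each derived line is a single clone, so the properties of a clone and the effect of selection or editing cannot be told apart. The labels do not say whether the 4 samples of a line were separate cultures, and p-values therefore measure the spread between these samples.

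A poly(A) site is read in parts. The CPSF subunit CPSF4, together with WDR33, contacts the AAUAAA hexamer upstream of the cut, CstF binds GU-rich RNA downstream of it through CSTF2, and CFIm binds UGUA elements through NUDT21. CPSF3 is the endonuclease, and PCF11 links the complex to RNA polymerase II and to termination. A poly(A) site may also lie within an intron, where splicing competes with cleavage, and use of such a site in TOP2A intron 19 ends the mRNA early and yields a short topoisomerase protein. The question was whether the mRNAs of the factors acting at this site differed among the lines. The counts are per gene and do not measure use of the intronic site itself.

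The site at which these factors act lies in intron 19 of TOP2A (GRCh38, minus strand, chr17:40403055-40404151, 1097 bases, 33.5% G+C), and its reference sequence is shown because it holds the elements that the members recognize. On the coding strand the intron held 6 AATAAA hexamers and 1 ATTAAA hexamer, counted with overlaps, and only that strand was searched because the factors read RNA. Of the first 1097 bases of 112247 introns at least that long in canonical coding transcripts, 49.6% held AATAAA, 43.9% held ATTAAA and 66.8% held at least 1 of them, with a median of 1 hexamer. At least 7 hexamers were found in 1.7% of them. The compared stretches had the same length but were not matched for G+C content, and the part of base composition in the count was not tested. TGTA, the DNA form of the CFIm element, occurred 8 times in intron 19 and was present in 97.3% of the compared introns, and TGTGT, a GT-rich run, occurred 2 times and was present in 79.7%. A window of 206 bases around the AATAAA at base 284 (chr17:40403763-40403968, 5′ to 3′ on the coding strand) is given with these hexamers and TGTA in capitals.
TOP2A intron 19 window: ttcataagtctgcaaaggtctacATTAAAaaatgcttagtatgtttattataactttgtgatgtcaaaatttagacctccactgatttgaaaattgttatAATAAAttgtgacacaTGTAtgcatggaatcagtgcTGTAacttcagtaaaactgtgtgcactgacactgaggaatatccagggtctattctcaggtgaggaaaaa
In this window the ATTAAA at base 207 lay upstream of the AATAAA, and the TGTA letters began downstream of it, at bases 300 and 320. No TGTA was found in the 100 bases before the hexamer. The remaining AATAAA hexamers of the intron are given with 20 bases on each side, again with these letters in capitals, and those at bases 705 and 709 overlap.
Intron 19 hexamer at base 133 (chr17:40403994-40404039): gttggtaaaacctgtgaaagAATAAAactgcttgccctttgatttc
Intron 19 hexamer at base 647 (chr17:40403480-40403525): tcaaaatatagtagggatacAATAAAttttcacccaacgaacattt
Intron 19 hexamer at base 705 (chr17:40403418-40403467): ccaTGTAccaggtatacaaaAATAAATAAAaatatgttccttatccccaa
Intron 19 hexamer at base 782 (chr17:40403345-40403390): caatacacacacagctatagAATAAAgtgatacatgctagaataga
For comparison, the signal 24 bases before the end of the canonical TOP2A transcript, in its last exon, is AATAAA (chr17:40388531-40388560, minus strand), shown with the same letters in capitals.
TOP2A terminal signal: atttTGTActttAATAAAatgttctaaaca
A match to these letters is a description of the sequence and not a measurement of use. The map of the intron shows the positions.

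**Figure D1:**
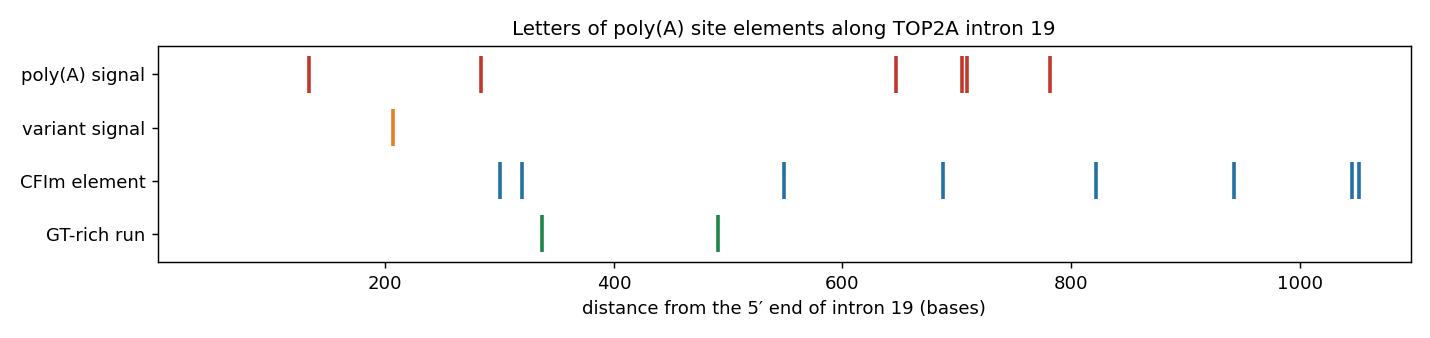
Positions of AATAAA (poly(A) signal), ATTAAA (variant signal), TGTA (CFIm element) and TGTGT (GT-rich run) along TOP2A intron 19, as distance in bases from the 5′ end of the intron on the coding strand. The AATAAA at base 284 is followed by TGTA at bases 300 and 320 and by TGTGT at base 337, and the other AATAAA letters start at bases 133, 647, 705, 709 and 782.

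Library totals ranged from 28981722 to 43648830 counts, and the members held 574 to 9654 counts per library. Levels are given as CPM, the counts scaled to a common library total, here the counts in tested genes with TMM factors. TOP2A itself was 402 CPM in K562, 275 CPM across K/VP.5 and 192 CPM in K562/SSedit-2 cells on average. K562 replicate 1 stood apart, with 0.7% of its counts in mitochondrial genes against 0.278% to 0.471% in the other 11 libraries, and its TMM factor of 0.948 was the lowest. It was the highest of the K562 libraries in 6 of the 10 members and the lowest in 2, CSTF2 and PCF11, and values without it are given beside the calls it changed and the called differences it moved most. All 9 genes listed as markers of K562 were detected, their summed level ranging from 3570 to 4613 CPM in K562, from 3142 to 3387 CPM across K/VP.5 and from 4869 to 5393 CPM across edited K562/SSedit-2 libraries. Among the 6 T and B cell markers, CD3E, MS4A1 and CD79A were too low to be tested, and the summed level of the 6 was 34.6 to 66.3 CPM, 18.2 to 24.3 CPM and 55.8 to 76.1 CPM in K562, resistant K/VP.5 and edited K562/SSedit-2 libraries. The 7 epithelial and fibroblast markers summed to 645 to 994 CPM, 954 to 1128 CPM and 744 to 983 CPM. In K/VP.5 against K562 cells 4 of these 7 were called higher (CDH1, KRT8, COL1A1 and COL1A2), 2 lower (EPCAM and COL3A1) and KRT18 was not called. The part of these differences in the results on the factors was not tested.

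The members were well expressed. By mean CPM over all libraries they stood between the 61.5th percentile of tested genes (FIP1L1) and the 94.9th (NUDT21). For comparison between genes, CPM was divided by the length of all exons joined, which gives CPM per kb. In K562 cells NUDT21 was 37.9 ± 4.64 CPM per kb (SD, n = 4), CPSF1 33.7 ± 0.978, CSTF2 31.1 ± 2.79 and CPSF3 31.0 ± 2.26 CPM per kb, and the ranges of neighbours in this order overlapped. CPSF6 followed at 21.5 ± 1.79 CPM per kb, CPSF4 at 12.8 ± 0.412, CPSF2 at 11.3 ± 0.625, CSTF3 at 8.35 ± 0.322, PCF11 at 7.96 ± 0.481 and FIP1L1 at 1.72 ± 0.256 CPM per kb. Here CSTF3 and PCF11 overlapped, while CPSF6, CPSF4 and CPSF2 each stood apart from their neighbours, and FIP1L1 was lowest in every library. In K/VP.5 cells CPSF3 was the highest member, at 42.2 ± 1.04 CPM per kb, ahead of CPSF1 at 37.0 ± 2.54 and NUDT21 at 30.8 ± 1.22 CPM per kb, and its range did not overlap theirs. In K562/SSedit-2 cells NUDT21 led again at 38.3 ± 2.02 CPM per kb. With the longest transcript as the length, CPSF4 in K562 cells was 29.8 and CSTF3 12.9 CPM per kb, so the places of these genes in the order depend on the length used, and CPSF3, at 49.3 CPM per kb in K/VP.5 cells, then fell just behind CPSF1 at 50.04.

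In K/VP.5 cells 3 of the 10 factors were higher than in K562 cells with no overlap between replicates, namely the endonuclease CPSF3, the CFIIm subunit PCF11 and the CstF scaffold CSTF3, and the CFIm subunit NUDT21 was lower. The differences were small. With CPSF1, whose replicates overlapped, 5 of 10 members were called at an adjusted p under 0.1 (edgeR quasi-likelihood test, Benjamini-Hochberg adjustment over all tested genes), 4 higher and 1 lower. The background was 52.3% of tested genes called, 26.2% higher and 26.1% lower, so the members were called about as often as other genes. No member passed 2-fold, which 15.6% of tested genes did together with the call, and 4 members had ranges that did not overlap, against 43.0% of tested genes. The median size of the log2 difference was 0.12 over the members and 0.33 over all tested genes. All members stood in the upper part of tested genes by level, and no background matched for level was computed in any comparison. The part of expression level in these contrasts was therefore not tested.

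In K562/SSedit-2 cells only CPSF1 and FIP1L1 were called against K562 cells, both lower, and the log2 differences of the other 8 members from K562 lay between -0.06 and 0.14. The background was 12.6% of tested genes called, 4.86% higher and 7.79% lower, and 2.06% were called and past 2-fold. No member was past 2-fold, and 1 member, CPSF1, had ranges that did not overlap, against 13.2% of tested genes. The median size of the log2 difference was 0.063 over the members and 0.16 over all tested genes. The fit was also run with the replicate number in it (the replicate block). CPSF1 and FIP1L1 stayed called there, at -0.20 and -0.26 (edgeR adjusted p = 0.065 and 0.056), and 16.4% of tested genes were called. The 2 calls were near the threshold, and both the calls and the background moved with single libraries. Without K562 replicate 1 only CPSF1 was called, while 19.5% of tested genes were. Of the called genes 49.0% were then higher, against 38.4% with all samples. Neither of the 2 was called without K562 replicate 2, K/VP.5 replicate 1 or 3 or K562/SSedit-2 replicate 2, 3 or 4. In those fits 7.12% to 11.1% of tested genes were called (edgeR).

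Between the derived lines 8 of 10 members were called in K562/SSedit-2 against K/VP.5 cells, 3 higher and 5 lower, with a background of 54.0%, of which 26.2% of tested genes were higher and 27.8% lower. This comparison tests the difference between the other comparisons, which share the K562 samples. Ranges did not overlap for 7 members, against 47.4% of tested genes. No member was past 2-fold, against 15.8% of tested genes that were called and past it. The median size of the log2 difference was 0.20 over the members and 0.35 over all tested genes. Without K562 replicate 1 the count was still 8, and 59.0% of tested genes were called.

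**Figure D2:**
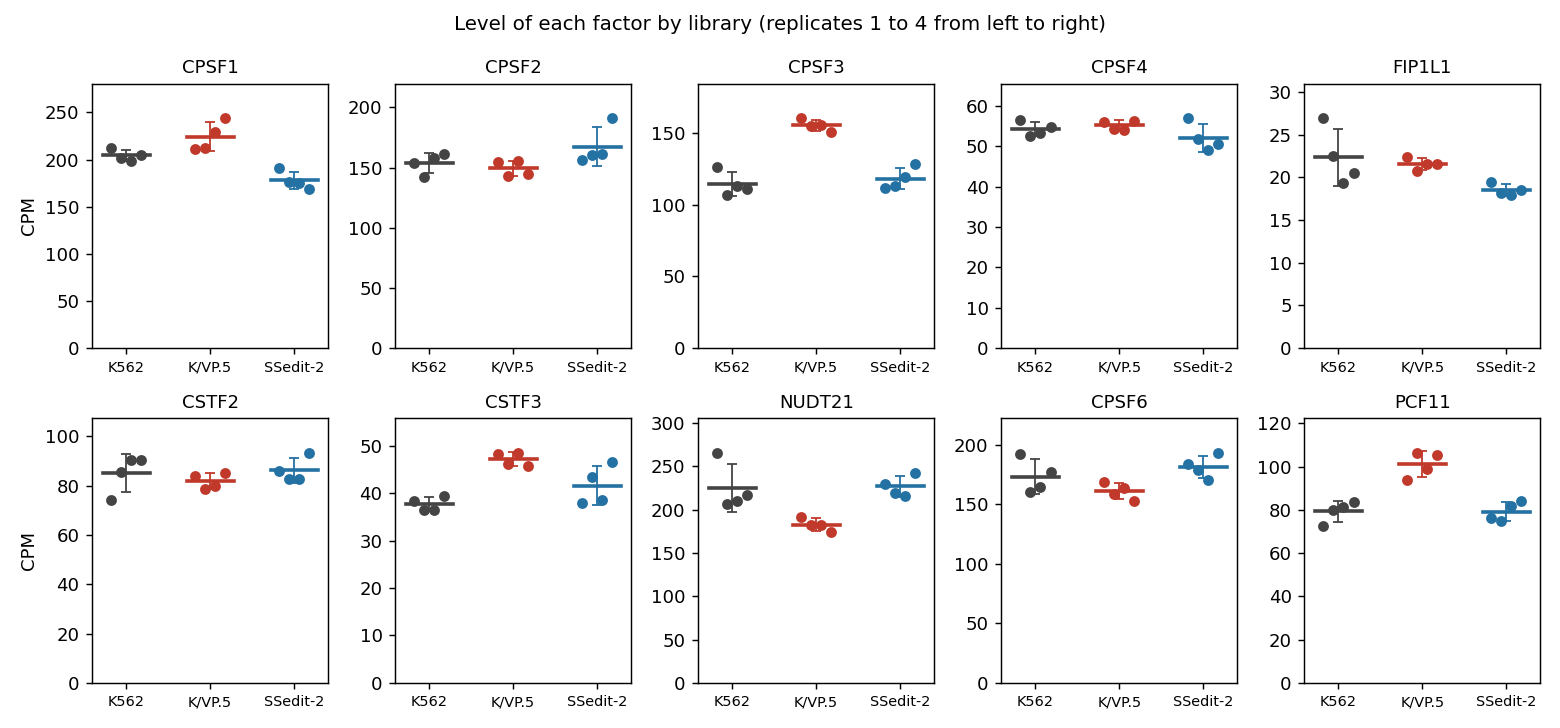
CPM of each factor (y axis, from 0) in each library of K562, resistant K/VP.5 and edited K562/SSedit-2 (SSedit-2) cells. Points are replicates 1 to 4 from left to right, horizontal bars are means and vertical bars are SD. The K/VP.5 points lie above all other points for CPSF3 and PCF11 and below them for NUDT21, and K562 replicate 1 lies apart from the other K562 points for NUDT21.

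**Figure D3:**
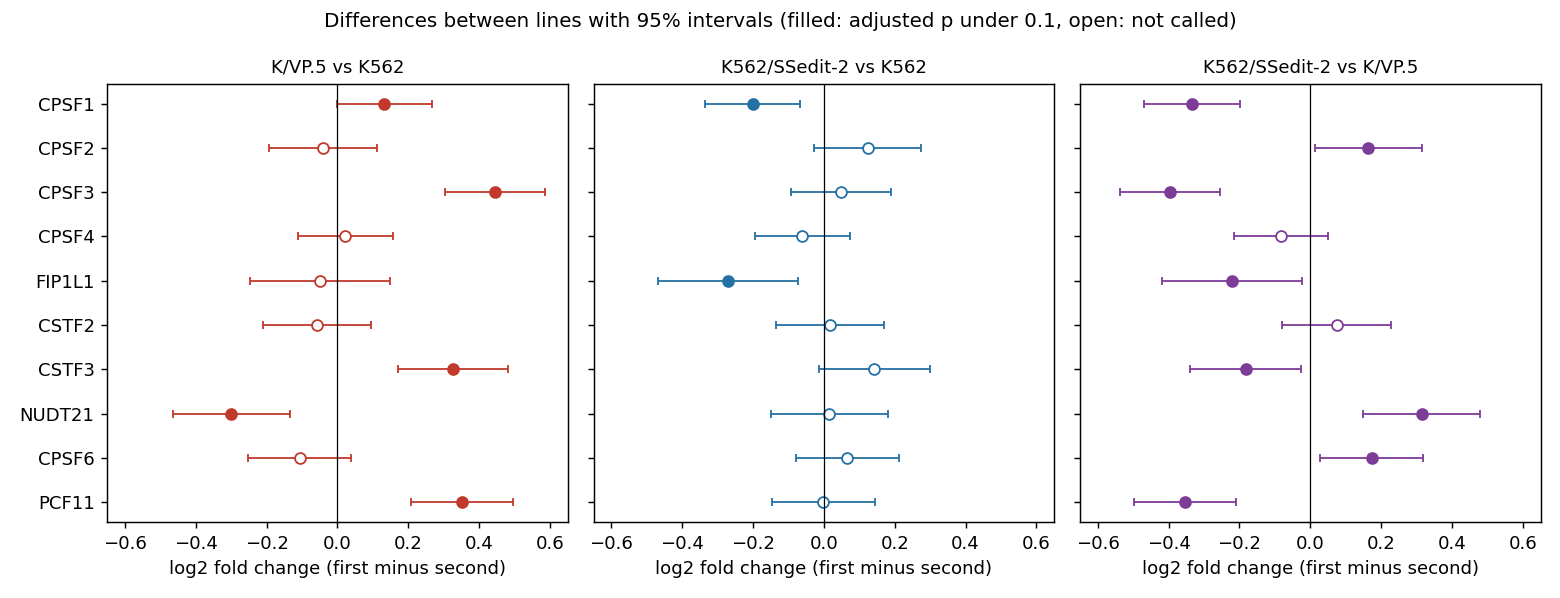
Log2 fold change of each factor (x axis, first line minus second) with its 95% interval from the edgeR fit. Filled points have an adjusted p under 0.1 and open points do not. All values lie between -0.40 and 0.44.

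CPSF3 (ENSG00000119203, chr2:9423651-9473101) encodes the endonuclease that makes the cut, and it was the member that differed most. Its levels were 126, 107, 113 and 111 CPM in K562 replicates 1 to 4, 160, 155, 155 and 151 CPM across K/VP.5 and 112, 113, 120 and 128 CPM across edited K562/SSedit-2 libraries. Every K/VP.5 library was above every library of the other lines, which overlapped each other. The means were 114 ± 8.35, 155 ± 3.82 and 118 ± 7.50 CPM (SD, n = 4). CPSF3 was 1.36-fold higher in K/VP.5 than in parental cells (log2 0.44, SE 0.066, edgeR adjusted p = 3.7e-05, exact permutation p = 0.0286, the smallest that 4 against 4 samples allow). In K562/SSedit-2 cells the log2 difference from K562 was 0.05 with a 95% interval from -0.09 to 0.19, and against K/VP.5 cells CPSF3 fell by 0.40 (edgeR adjusted p = 1.1e-04). CPSF2 (ENSG00000165934, chr14:92121969-92172145) is the partner of CPSF3 in the cleavage module and lacks its activity. It was 154, 142, 158 and 161 CPM in K562, 154, 143, 155 and 145 CPM across K/VP.5 and 157, 161, 162 and 191 CPM across edited K562/SSedit-2 libraries, and the last of these stood well above the other 3. CPSF2 was not called against K562 in either line, with log2 differences of -0.04 in K/VP.5 (95% interval -0.19 to 0.11) and 0.12 in K562/SSedit-2 cells (-0.03 to 0.27). Its difference of 0.16 between the derived lines (edgeR adjusted p = 0.070) was lost without K562/SSedit-2 replicate 4, when it was 0.10, and also without K/VP.5 replicate 2 or 4.

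CPSF1 (ENSG00000071894, on chromosome 8 from 144393229 to 144409335), the largest CPSF subunit, was called in opposite directions in the derived lines. Its level was 212, 202, 198 and 205 CPM in K562, 212, 212, 229 and 244 CPM across K/VP.5 and 191, 176, 176 and 169 CPM across edited K562/SSedit-2 libraries. All K562/SSedit-2 libraries were below all others, while the lowest K/VP.5 library was just below the highest K562 library. The difference of 0.33 by which CPSF1 fell on the log2 scale from K/VP.5 to K562/SSedit-2 cells was called (SE 0.063, edgeR adjusted p = 3.5e-04). Against K562 cells it was 0.13 in K/VP.5 (adjusted p = 0.0999) and -0.20 in K562/SSedit-2 cells (adjusted p = 0.064). The call in K/VP.5 cells was lost in 14 and that in K562/SSedit-2 cells in 10 of 21 alternative fits. With 1 sample left out the former difference ranged from 0.10 to 0.16, its call lost without any 1 of the K562 replicates, K/VP.5 replicate 3 or 4 or K562/SSedit-2 replicate 1, 2 or 3. The latter ranged from -0.24 to -0.16, its call lost without K562 replicate 2 or 4, K/VP.5 replicate 1 or 3 or K562/SSedit-2 replicate 2, 3 or 4. CPSF4 (ENSG00000160917, chr7:99438922-99457373), a zinc finger protein at the hexamer, was 52.7 to 56.6 CPM in K562, 54.1 to 56.4 CPM across K/VP.5 and 49.0 to 57.0 CPM across edited K562/SSedit-2 libraries, and these ranges overlapped. Its log2 differences from K562 cells were 0.02 (95% interval -0.11 to 0.16) for K/VP.5 and -0.06 (-0.19 to 0.07) in the edited clone.

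FIP1L1 (ENSG00000145216, chr4:53377569-53464382), which binds U-rich RNA and poly(A) polymerase, was the least abundant member. It was 26.9, 22.5, 19.3 and 20.6 CPM in K562, 22.4, 20.8, 21.5 and 21.6 CPM across K/VP.5 and 19.5, 18.1, 17.95 and 18.5 CPM across edited K562/SSedit-2 libraries. The K562/SSedit-2 libraries were below all K/VP.5 libraries, and their highest was just above the lowest K562 library. FIP1L1 fell by 0.27 on the log2 scale from K562 to K562/SSedit-2 cells (SE 0.093, edgeR adjusted p = 0.091). Without K562 replicate 1 the difference was -0.17 and was not called (adjusted p = 0.16), and it was lost in 13 of 21 alternative fits, among them the omission of any 1 sample other than K562 replicates 3 and 4 (log2 difference -0.33 to -0.17 over all omissions). It did not pass the test in K/VP.5 against K562 cells, at -0.05 (95% interval -0.25 to 0.15), and was lower in the edited clone than in K/VP.5 cells by a log2 difference of -0.22 (adjusted p = 0.063), a call lost without K562 replicate 2, K/VP.5 replicate 1 or 3 or K562/SSedit-2 replicate 2 or 3 (-0.22 to -0.17). Exons of LNX1 on the opposite strand cover 14.6% of the exonic length of FIP1L1 and those of a further coding gene on the same strand 7.81%, so its counts may be shared.

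Of the CstF subunits, CSTF3 differed and CSTF2 did not pass the test. CSTF3 (ENSG00000176102, chr11:33077188-33162371) is the scaffold that joins the CstF subunits, and it was 38.4, 36.6, 36.4 and 39.4 CPM in K562, 48.4, 46.1, 48.5 and 45.8 CPM across K/VP.5 and 37.9, 43.4, 38.6 and 46.6 CPM across edited K562/SSedit-2 libraries. The K/VP.5 libraries were all above K562, and the K562/SSedit-2 libraries spread from the level of K562 to that of K/VP.5. CSTF3 was 1.25-fold higher in K/VP.5 than in parental cells (log2 0.33, SE 0.073, edgeR adjusted p = 0.0016, exact permutation p = 0.0286). In K562/SSedit-2 cells the log2 difference from K562 was 0.14 (95% interval -0.01 to 0.30), not called, and from K/VP.5 it was -0.18 (adjusted p = 0.051), with ranges that overlapped and a call lost without replicate 1 or 3 of either of these lines (-0.23 to -0.12). Exons of TCP11L1 and LINC00294 on the opposite strand cover 8.69% and 5.83% of its exonic length, so its counts may be shared. CSTF2 (ENSG00000101811, chrX:100820391-100841520), the RNA-binding subunit, was 74.3, 85.6, 90.5 and 90.6 CPM in K562, 83.9, 78.6, 80.1 and 85.1 CPM across K/VP.5 and 86.0, 82.8, 82.8 and 93.3 CPM across edited K562/SSedit-2 libraries. K562 replicate 1 was the lowest of all 12. CSTF2 was not called in any comparison, with a log2 difference of -0.06 (95% interval -0.21 to 0.09) in K/VP.5 against K562 cells, and without K562 replicate 1 this became -0.14 and was called (adjusted p = 0.073).

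The CFIm members NUDT21 and CPSF6 were both lowest in K/VP.5 cells on average. CPSF7, a CFIm subunit that is not among the members, was not, and it was named after its values were seen. Its mean was 138 CPM across K/VP.5, 130 CPM in K562 and 117 CPM in the edited clone. Its difference of 0.09 between K/VP.5 and K562 cells was not called. Between the derived lines it was called lower in the edited clone, at -0.24 (edgeR adjusted p = 0.014), where both members were called higher. NUDT21 (ENSG00000167005, chr16:56429133-56452199), which binds UGUA, was 265, 206, 210 and 217 CPM in K562, 192, 182, 182 and 174 CPM across K/VP.5 and 230, 220, 216 and 243 CPM across edited K562/SSedit-2 libraries. Every K/VP.5 library was below every other library, and K562 replicate 1 was the highest of all. NUDT21 fell by 0.30 on the log2 scale from K562 to K/VP.5 cells (SE 0.078, edgeR adjusted p = 0.0046), and by 0.23 without K562 replicate 1 (adjusted p = 0.0029). In K562/SSedit-2 cells it was 1.24-fold higher than in K/VP.5 cells (log2 0.31, adjusted p = 0.0031) and differed from K562 cells by 0.02 (95% interval -0.15 to 0.18). A further coding gene on the same strand, which is not among the counted IDs, shares 45.9% of the exonic length of NUDT21. CPSF6 (ENSG00000111605, chr12:69239569-69274358), the larger subunit that pairs with NUDT21, was 192, 160, 164 and 177 CPM in K562, 169, 158, 164 and 153 CPM across K/VP.5 and 183, 178, 170 and 193 CPM across edited K562/SSedit-2 libraries. K562 overlapped both other lines, which did not overlap each other. Its difference from K562 was -0.11 (95% interval -0.25 to 0.04) for K/VP.5 and 0.07 (-0.08 to 0.21) in the edited clone, neither called (-0.07 and 0.12 without K562 replicate 1), and between the derived lines it was 0.17 (adjusted p = 0.047), and without K/VP.5 replicate 4 it was not called (0.15 to 0.23 over all omissions of 1 sample). Without K562 replicate 2 the difference from K562 in K/VP.5 cells was called, at -0.16.

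PCF11 (ENSG00000165494, chr11:83156988-83187451), the CFIIm subunit that binds the C-terminal domain of RNA polymerase II, was raised in K/VP.5 cells and close to K562 in the edited clone. Its levels were 72.4, 80.0, 81.1 and 83.5 CPM in K562, 93.9, 106, 99.0 and 105 CPM across K/VP.5 and 76.1, 74.6, 81.9 and 84.1 CPM across edited K562/SSedit-2 libraries. All K/VP.5 libraries were above all others. PCF11 was 1.28-fold higher in K/VP.5 than in parental cells (log2 0.35, SE 0.068, edgeR adjusted p = 4.5e-04, exact permutation p = 0.0286), and the log2 difference was 0.29 without K562 replicate 1 (adjusted p = 0.0010). In K562/SSedit-2 cells it differed from K562 by -0.0013 on the log2 scale (95% interval -0.15 to 0.14) and was lower than in K/VP.5 cells by -0.35 (adjusted p = 4.2e-04). The antisense gene PCF11-AS1 covers 15.2% of its exonic length. In these bulk libraries a lower level in every cell and a smaller share of cells with a high level cannot be told apart for any of the factors.

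Ratios of read counts within a library do not depend on the scaling between libraries, and 4 pairs of members were set against each other in this way, chosen after their levels had been seen and given as a description. CPSF3 to CPSF2, the enzyme to its inactive partner, was 0.821, 0.754, 0.713 and 0.690 in K562, 1.04, 1.08, 1.00 and 1.04 across K/VP.5 and 0.713, 0.706, 0.740 and 0.671 across edited K562/SSedit-2 libraries, so K/VP.5 stood apart. CSTF3 to CSTF2 was 0.577 ± 0.0282 in K/VP.5 (SD, n = 4), 0.445 ± 0.0496 in K562 and 0.482 ± 0.0365 in K562/SSedit-2 cells, and the lowest K/VP.5 library, at 0.539, was above the highest of the others, at 0.524. NUDT21 to CPSF6 was 1.14 ± 0.0155 in K/VP.5, 1.29 ± 0.0658 in K562 and 1.25 ± 0.0154 in K562/SSedit-2 cells, and here K/VP.5 was below every other library. PCF11 to NUDT21 was 0.489, 0.584, 0.543 and 0.605 in K/VP.5 libraries. In K562 libraries it was 0.273, 0.388, 0.386 and 0.385, replicate 1 being far below the rest, and in K562/SSedit-2 libraries it was 0.331 to 0.379. For these 4 ratios, the direction of K/VP.5 against the other lines was the same in every library, as the plot of count ratios shows.

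**Figure D4:**
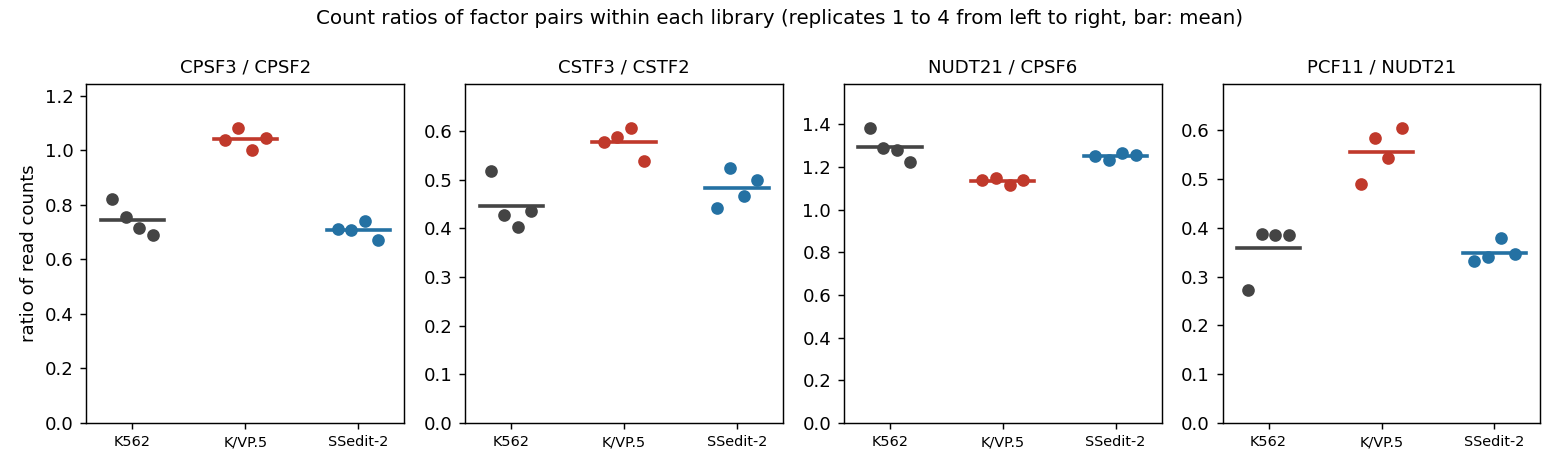
Ratio of read counts (y axis, from 0) of 4 pairs of factors within each library, with points for replicates 1 to 4 from left to right and bars for the means of the lines. K/VP.5 libraries lie above the other lines for CPSF3 to CPSF2, CSTF3 to CSTF2 and PCF11 to NUDT21, and below them for NUDT21 to CPSF6.

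The promoters of the 4 members whose replicates did not overlap between K/VP.5 and K562 cells are shown as the 150 bases before the transcription start (RefSeq, GRCh38.p14, 5′ to 3′ on the gene's strand), with matches to GGGCGG (GC box), CCAAT (NF-Y box), CCGGAAG (ETS) or their reverse complements in capitals. Both strands of the 250 bases before the start were searched. These RefSeq starts differ from the ends of the gene spans given above, which come from another annotation. By those spans the CSTF3 and NUDT21 stretches lie inside the gene, and the PCF11 stretch does so for nearly all its length. Only the last bases of the CPSF3 stretch lie inside its span.
CPSF3 promoter (chr2:9423504-9423653, plus strand): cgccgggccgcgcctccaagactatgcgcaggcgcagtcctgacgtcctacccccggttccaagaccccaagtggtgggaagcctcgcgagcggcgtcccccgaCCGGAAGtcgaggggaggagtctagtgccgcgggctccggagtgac
CSTF3 promoter (chr11:33161481-33161630, minus strand): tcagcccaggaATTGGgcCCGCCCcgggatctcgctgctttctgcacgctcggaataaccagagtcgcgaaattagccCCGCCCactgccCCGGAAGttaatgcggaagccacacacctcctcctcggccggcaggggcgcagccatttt
PCF11 promoter (chr11:83156981-83157130, plus strand): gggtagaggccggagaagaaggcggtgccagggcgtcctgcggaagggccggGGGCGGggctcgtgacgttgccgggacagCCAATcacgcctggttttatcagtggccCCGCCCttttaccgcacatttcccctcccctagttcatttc
NUDT21 promoter (chr16:56451333-56451482, minus strand): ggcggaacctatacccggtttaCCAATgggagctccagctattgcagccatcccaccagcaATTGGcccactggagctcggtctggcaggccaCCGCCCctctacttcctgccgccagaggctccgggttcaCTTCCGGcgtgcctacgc
CPSF3 held 1 ETS match and neither a GC box nor a CCAAT box. In the 250 bases CSTF3 and NUDT21 held all 3 kinds, with 3 CCAAT matches in NUDT21, and PCF11 held 2 GC boxes and 2 CCAAT boxes but no ETS match. Among all 35116 promoters of this length GGGCGG was present in 42.6%, CCAAT in 32.0% and CCGGAAG in 8.5%. Of the 9 members other than CPSF1, whose promoters were searched, 6 held GGGCGG, 6 held CCAAT and 4 held CCGGAAG. GCATGCGC, part of the NRF1 element, was found in none of the 9 and in 2.6% of all promoters, and the letters give no information on binding of any factor.

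The tested gene whose pattern over the 12 samples was most like that of CPSF3, the member with the smallest adjusted p, was LEPR, with a Pearson correlation of log2 CPM of 0.982. ZNF669, LNX2, VWA8 and DCAF12 followed, the last at 0.980. The 12 points come from 3 lines and are not independent, and likeness within a line was not computed. Mean levels of LEPR were 145 CPM in K562, 247 CPM across K/VP.5 and 158 CPM in K562/SSedit-2 cells, against 114, 155 and 118 CPM for CPSF3.

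Among 19 other genes of 3′ processing, all of them tested, 9 were called in K/VP.5 against K562 cells, 3 higher and 6 lower, against 52.3% of all tested genes. Their median size of log2 difference was 0.13, beside 0.12 for the members and 0.33 for all tested genes. PPP1CA, a catalytic subunit of the protein phosphatase found with the CPSF complex, had the largest difference. It was 274, 241, 206 and 189 CPM in K562, 121, 105, 116 and 114 CPM across K/VP.5 and 208, 192, 198 and 177 CPM across edited K562/SSedit-2 libraries. It fell by 0.99 on the log2 scale in K/VP.5 against K562 cells (SE 0.098, edgeR adjusted p = 3.9e-07), with no overlap between replicates. CSTF2T, the autosomal paralog of CSTF2, was also lower in K/VP.5 cells (log2 -0.43, adjusted p = 6.2e-05), and reads may be shared between paralogs. SCAF8, an anti-termination factor, was lower by -0.38 (adjusted p = 0.0058), and by -0.25 without K562 replicate 1, which was far above the other K562 libraries. SSU72, a phosphatase of the polymerase C-terminal domain, and SYMPK, the scaffold symplekin, were higher, with log2 differences of 0.34 (adjusted p = 2.0e-04) and 0.31 (adjusted p = 4.3e-04). CTDP1, another phosphatase of that domain, was higher by 0.22 (adjusted p = 0.060), and by 0.11 without K562 replicate 1, when it was not called. That call was lost in 8 of 21 alternative fits.

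In K562/SSedit-2 against K562 cells 1 of the 19 was called, PPP1CB at a log2 difference of 0.18 (SE 0.063, edgeR adjusted p = 0.093), and 4 had an unadjusted p under 0.05. The call of PPP1CB was lost in 10 of 21 alternative fits, 7 of them omissions of 1 sample (0.16 at the lowest). Of all tested genes 12.6% were called. Same-numbered samples of this comparison correlated at 0.135 to 0.292. The lowest of these is close to the highest between samples of unlike numbers, 0.128. With the replicate block 3 were called, PPP1CB, PPP1CA at -0.22 (edgeR adjusted p = 0.087) and PABPN1 at -0.25 (adjusted p = 0.098). In that fit 16.4% of all tested genes were called. PABPN1, the nuclear poly(A) binding protein, was named after its values were seen. Without K562 replicate 1 the count was 4, PPP1CB, PABPN1, CTDP1 and PAPOLA, the last of which, likewise named after its values were seen, was higher by 0.22, and 19.5% of all tested genes were called. Between the derived lines 12 of 19 were called, 7 higher and 5 lower in K562/SSedit-2 cells, against 54.0% of all tested genes, led by PPP1CA at 0.76, CSTF2T at 0.55 and SCAF4 at 0.32 among those higher and by SYMPK at -0.43, CTDP1 at -0.36 and SSU72 at -0.34 among those lower (edgeR adjusted p from 4.4e-06 to 0.0058). Counts of some of these genes may be shared, since exons of the read-through gene BCL2L2-PABPN1 cover 39.3% of the exonic length of PABPN1, those of TIAM2 13.1% of SCAF8 and those of SPDYA 10.8% of PPP1CB. On the opposite strand, exons of CARNS1, RAD9A and TBC1D10C cover 7.76%, 5.65% and 4.57% of that of PPP1CA.

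The U1 snRNP proteins and the CDK12 and CDK13 kinases with their cyclin CCNK hold back use of intronic poly(A) sites. Of these 6 genes 3 were called in K/VP.5 against K562 cells, against 52.3% of all tested genes. SNRNP70 was higher (log2 0.36, SE 0.082, edgeR adjusted p = 0.0018), at 267, 353, 361 and 339 CPM in K562 and 411, 407, 426 and 449 CPM in K/VP.5 libraries, and its difference was 0.25 without K562 replicate 1. SNRPC was lower (log2 -0.40, adjusted p = 0.0077), by -0.28 without that library. CCNK was lower as well (log2 -0.28, adjusted p = 0.079), but its ranges overlapped, and the difference was -0.20 and not called without K562 replicate 1. That call was lost in 7 of 21 alternative fits, limma voom and upper-quartile factors among them. Exons of CCDC85C on the opposite strand cover 59.5% of the exonic length of CCNK, so the counts behind all its values may be shared. Subunits of the U1 particle thus differed in both directions. In K562/SSedit-2 against K562 cells none of the 6 was called by edgeR, DESeq2 or limma voom, which called 12.6%, 15.2% and 12.7% of all tested genes. None had an unadjusted p under 0.05 in edgeR. Without K562 replicate 1, CCNK was called there, higher by 0.34 (adjusted p = 0.055). Between the derived lines CCNK was higher by 0.51 and SNRNP70 lower by -0.38 in K562/SSedit-2 cells (adjusted p = 0.0030 and 0.0011).

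Factors of the separate route that ends replication-dependent histone mRNAs were also listed. All 5 were called in K/VP.5 against K562 cells, 4 lower and 1 higher, where 52.3% of all tested genes were called. SLBP, the histone stem-loop binding protein, was 221, 251, 222 and 211 CPM in K562, 141, 119, 141 and 146 CPM across K/VP.5 and 221, 220, 206 and 209 CPM across edited K562/SSedit-2 libraries. It fell by 0.73 on the log2 scale (SE 0.073, edgeR adjusted p = 4.7e-07) in K/VP.5 cells, whose libraries were below all others. LSM11 of the U7 particle fell by 0.58 (adjusted p = 1.1e-05) and CASP8AP2 by 0.31 (adjusted p = 0.0015), while ZNF473 was 0.20 higher with overlapping ranges (adjusted p = 0.082). The call of ZNF473 was lost in 9 of 21 alternative fits, and without K562 replicate 2 its difference was 0.11. None of the 5 was called in K562/SSedit-2 against K562 cells by edgeR, DESeq2 or limma voom, and none had an unadjusted p under 0.05 in edgeR. Of all tested genes these tools called 12.6%, 15.2% and 12.7%. Between the derived lines 4 were called, against 54.0% of all tested genes. SLBP was 0.65, LSM11 0.53 and CASP8AP2 0.41 higher in K562/SSedit-2 cells, and ZNF473 was lower, at -0.19. The call of ZNF473 there was lost in 14 of 21 alternative fits.

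**Figure D5:**
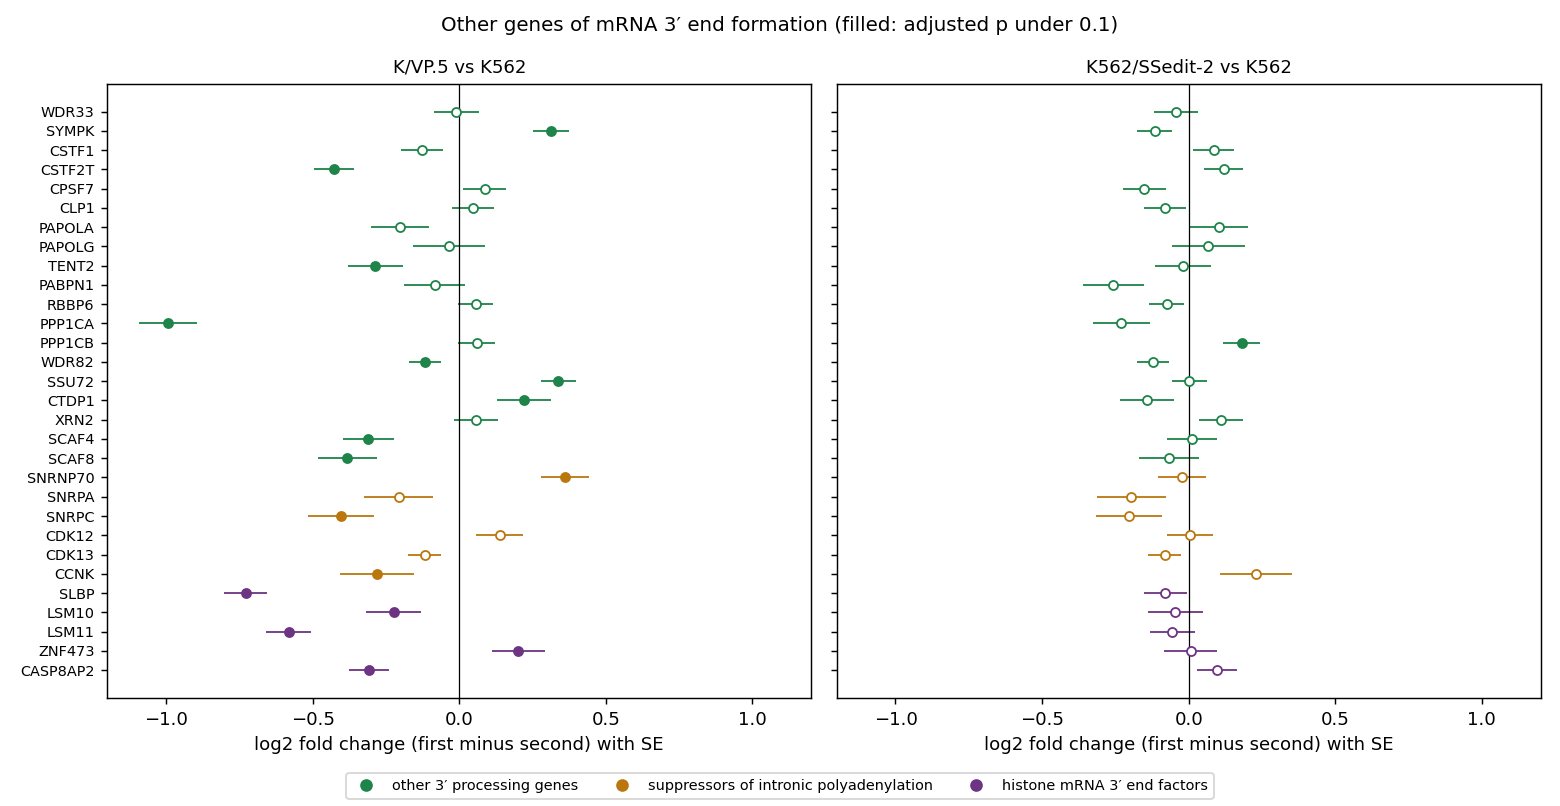
Log2 fold change (x axis) with its SE for 19 other 3′ processing genes, 6 suppressors of intronic polyadenylation and 5 histone mRNA 3′ end factors in K/VP.5 and in edited K562/SSedit-2 cells, each against K562 cells. Filled points have an adjusted p under 0.1, which 17 genes do in K/VP.5 cells and 1 gene, PPP1CB, in K562/SSedit-2 cells.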

How the data were processed

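Total RNA of 12 samples, 4 each of K562, resistant K/VP.5 and edited K562/SSedit-2 cells, was sequenced as 150-bp paired-end reads. The authors aligned them to GRCh38 using HISAT2 and deposited raw counts per gene from featureCounts; annotation release, strand setting and treatment of multiply mapped reads are not given in the sources used here. Of 60671 gene IDs, 60401 were found in GENCODE 44. Genes were kept with edgeR 4.0.16 filterByExpr (minimum count of 10), scaled with TMM factors and compared by line in 1 fit of all samples with the quasi-likelihood F test (R 4.3.3), with Benjamini-Hochberg adjustment over 18626 genes; an adjusted p under 0.1 was a call. The SE is the log2 difference divided by the square root of F, and intervals are 95%. CPM uses the TMM-scaled counts of tested genes. Exact permutation tests were two-sided on mean CPM. No replicates were duplicates (chi-square per degree of freedom at least 5.07). Pairing by replicate number was checked with the correlation across genes of same-numbered deviations from line means. It was 0.135 to 0.292 in K562/SSedit-2 against K562 (taken as paired, though not in the main fit), and in the other comparisons not over 0.1 in every pair. The members and lists were chosen with earlier results of these data known, and 1 gene of the lists is not reported here. All members, and for each other list and comparison the 3 largest called rises and falls, were named, with TOP2A and the 5 genes most like the member of smallest adjusted p. Alternatives were edgeR with DESeq2 size factors or upper-quartile factors, DESeq2 1.42.0, limma 3.58.1 voom, other filters, only the lines compared, the replicate block, an adjusted p under 0.05, omission of each sample, and the longest transcript as length.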

Additional observations from a re-analysis of the deposited data

Results flagged for a closer look

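In 96 groups of 4 values, 5 had a sample whose gap to its nearest neighbour took more of the range than the Dixon test allows at 95%, and chance alone gives about 1 in 20. CPSF2 was 191 CPM in K562/SSedit-2 replicate 4 against 157 to 162 CPM in the other 3 libraries. The other 4 were all in K562 replicate 1. SCAF8 was 148 CPM there against 101 to 102 CPM, and SCAF4 was 164 CPM against 122 to 128 CPM. The count ratio of PCF11 to NUDT21 was 0.273 against 0.385 to 0.388. Mitochondrial genes took 0.7% of its counts against 0.278% to 0.333% in the other K562 libraries. Whether these values share a cause was not tested.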

How the results depend on the processing

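Each comparison was refitted under 21 alternatives, 12 of which left out 1 sample. For CPSF3, PCF11, CSTF3 and NUDT21 in K/VP.5 against K562 cells, every alternative kept the direction and the call, with log2 differences of 0.39 to 0.51, 0.29 to 0.42, 0.29 to 0.39 and -0.36 to -0.23. No member passed 2-fold at an adjusted p under 0.1 in any comparison or alternative. No called difference of a member, of TOP2A or of the other listed genes named by rule reversed its direction. Over the 30 member values 58 of 630 alternatives lost a call and 3 gained one, and 20 values were the same side of the threshold in all of them. The number of members called in K562/SSedit-2 against K562 cells moved from 2 to 1 with upper-quartile factors or limma voom and to 0 with only the lines compared or an adjusted p under 0.05, and it was 0 to 2 when 1 sample was left out. In K562/SSedit-2 against K/VP.5 cells it moved from 8 to 4 with no filter and to 5 at 0.05, and was 6 to 8 when 1 sample was left out. In K/VP.5 against K562 cells it was 4 or 5 throughout. For the 19 other 3′ processing genes in K562/SSedit-2 against K562 cells the count of 1 became 2 with no filter, 0 with only the lines compared or at 0.05, 3 with the replicate block, and 0 to 4 when 1 sample was left out. For the suppressors of intronic polyadenylation the count in K/VP.5 against K562 cells moved from 3 to 5 with the replicate block and was 2 to 5 when 1 sample was left out. In K562/SSedit-2 against K562 cells it moved from 0 to 1 with no filter, and was 0 or 1 when 1 sample was left out. Upper-quartile factors moved the share of called genes that were higher from 38.4% to 49.2% in that comparison, omission of K562 replicate 1 moved it to 49.0% and no filter to 27.3%. Same-numbered samples correlated at -0.003 to 0.27 in K/VP.5 against K562 and at -0.09 to 0.16 in K562/SSedit-2 against K/VP.5 cells, so the numbers were not taken as pairs there, and the block left 4 and 8 members called. The share of all tested genes called in K562/SSedit-2 against K562 cells moved from 12.6% to 8.41% with only the lines compared, 6.49% with no filter and 7.9% at 0.05, and to 15.2% with DESeq2, 16.4% with the replicate block and 2563 of 14238 genes with at least 1 CPM in 4 samples. In K/VP.5 against K562 and in K562/SSedit-2 against K/VP.5 cells the share was 24.7% and 25.1% with no filter, when 42540 genes were tested, and 55.1% and 56.7% with the replicate block. At 0.05 it was 45.6% and 47.4%, with at least 1 CPM in 4 samples 59.6% and 61.7%, and with 1 sample left out 46.8% to 53.3% and 48.4% to 59.0%. The causes of these moves were not tested. At this depth and number of samples the half-width of the 95% interval of a member's log2 difference was 0.13 for CPSF4 and up to 0.20 for FIP1L1.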
